A study of Mus musculus with 16 samples.

Results

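The transcriptional effect of CGRP (calcitonin gene-related peptide) on lung group 2 innate lymphoid cells (ILC2s) stimulated with IL-33 was measured in WT and *Pac1*-KO cells together. The comparison used 4 groups of 2 libraries each, 8 of the 16 libraries of the series, chosen by their labelled treatment alone. The IL-33 libraries came from WT or *Pac1*-KO ILC2s cultured with IL-7 (100 ng/mL) and IL-33 (100 ng/mL), and the CGRP libraries from cells cultured likewise with CGRP added at 500 ng/mL, all for 4 hours. CGRP was thus tested as 4 libraries against 4, with genotype as a covariate. All mice were on the C57BL/6J background and were 6–8 weeks old, and the *Pac1*-KO mice lacked the phosphatase PAC1, encoded by *Dusp2*, in every cell rather than in ILC2s alone. The remaining libraries, which are ILC2s of both genotypes in IL-7 alone or in IL-7 and IL-33 with the neuropeptide NMU (500 ng/mL), were used for levels and for 1 direct comparison. The study's culture protocol expands sorted lung ILC2s in IL-2 and IL-7 before stimulation, so the cells may differ from freshly isolated ones. About 500 sorted cells went into each library. The labels do not say whether the 2 libraries of a group came from separate mice, so the *P* values measure the spread between libraries, which may be technical.

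CGRP is a neuropeptide released by sensory neurons and by pulmonary neuroendocrine cells. It acts on a receptor formed by the calcitonin receptor-like receptor, encoded by *Calcrl*, and the accessory protein RAMP1, which couples to Gs, raises cyclic AMP, and activates protein kinase A (PKA). PKA phosphorylates CREB-family factors bound at the cAMP response element (CRE), and the genes that respond within minutes to hours include those of the FOS, JUN, and NR4A transcription factors and of feedback inhibitors. ILC2s, the innate counterparts of Th2 cells, release IL-5, IL-13, and amphiregulin in response to IL-33, and CGRP is known as a restraint on their proliferation and IL-13 output.

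The 8 libraries held 8333920 to 15470650 reads counted on genes, and the CGRP and IL-33 libraries did not differ detectably in total (two-sided exact permutation test, *P* = 0.314, with 0.0286 the smallest value that 4 against 4 allows). Levels are given as CPM, the standard unit in which a gene's count is scaled by the total count of its library, in the order WT 1, WT 2, *Pac1*-KO 1, *Pac1*-KO 2. The gene deleted in the *Pac1*-KO mice could not be used to check the labels: *Dusp2* had 0 counts in all 8 libraries, WT included, where a floor of 3 counts equals 0.194 to 0.360 CPM. The ILC2 markers *Gata3*, *Il1rl1*, *Il7r*, and *Icos* were above 390 CPM in each library. The 19 ILC2 markers summed to 10900 to 14020 CPM in the IL-33 and 11250 to 12670 CPM in the CGRP libraries. Abundant genes carried that sum, and other markers were low. *Ptgdr2* was at or near 0, and *Nmur1* was at 0.294 to 18.5 CPM with IL-33 and 0 to 4.70 CPM with CGRP. *Il17rb* reached at most 25.2 CPM and *Tcf7* at most 16.8 CPM in the 8 libraries. Several RNA classes and marker sets of other cells differed between treatments. Of the permutation tests, only that of library totals was planned, and the ribosomal protein class was read after the values were seen. Mitochondrially encoded genes took 10.9% ± 1.83 of the counts with CGRP and 5.83% ± 1.80 without, and ribosomal protein genes 11.9% ± 1.67 against 7.29% ± 0.669 (SD, *n* = 4; both exact permutation *P* = 0.0286, the smallest possible). The 5 B cell markers summed to 32.2 to 261 CPM in the CGRP and 5.59 to 22.6 CPM in the IL-33 libraries, as described with the immunoglobulin genes below, and the 9 epithelial, endothelial, and stromal markers to 40.3 to 58.9 CPM in the CGRP and 72.7 to 140.2 CPM in the IL-33 libraries. In these bulk libraries, fewer cells of a type and less RNA per cell cannot be told apart.

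With TMM scaling, most genes that changed with CGRP were higher. Of 13160 genes with enough counts to test, 230 (1.75%) passed the cutoff of a fold change above 1.5 and an adjusted *P* value under 0.05 in edgeR's quasi-likelihood test, with *P* values adjusted by the Benjamini-Hochberg method over all genes tested. All adjusted *P* values below are from this method unless another tool is named. Of the 230, 202 rose (1.53% of genes tested) and 28 fell (0.213%). At an unadjusted *P* under 0.05 there were 1992 genes (15.1%), 8.77% of all tested being higher and 6.37% lower. The 4 CGRP libraries lay wholly above or below the 4 IL-33 libraries in CPM for 214 of the 230, against 1700 of all 13160 genes (12.9%, with 4.83% above and 8.09% below). The 15 risers and 15 fallers of smallest *P* were chosen among these, so their lack of overlap was set by the choice. *Fos*, *Fosb*, *Spry2*, *Areg*, *Il2*, *Il4*, *Cxcl2*, *Map3k8*, *Tiparp*, *Mt1*, *Igkc*, and *Il9* are among them. The risers had a median log2 fold change of 1.98 and the fallers of -1.6, with -0.09 for all genes tested. The excess of risers depended on scaling: TMM, which sets the scale from the bulk of the genes, gave factors of 0.968 to 1.24 to the IL-33 and 0.878 to 0.952 to the CGRP libraries, and scaling by total counts alone moved the median of all genes to -0.35 and gave 121 risers and 63 fallers. By kind, the risers comprised 118 protein-coding nuclear genes other than ribosomal protein genes, 30 ribosomal protein genes, 9 immunoglobulin segments, 2 mitochondrial genes, and 43 noncoding, pseudogene, or unclassed genes, and the fallers were protein-coding except 1. Without the mitochondrial, ribosomal protein, and immunoglobulin genes in the fit, 126 genes rose and 17 fell, all 143 of them among the 230. Without IL-33 library WT 1 or *Pac1*-KO 1 the totals were 150 and 133, with 9 fallers each, and the fallers numbered 55 without IL-33 library *Pac1*-KO 2 and 46 without CGRP library WT 2.

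**Figure D1:**
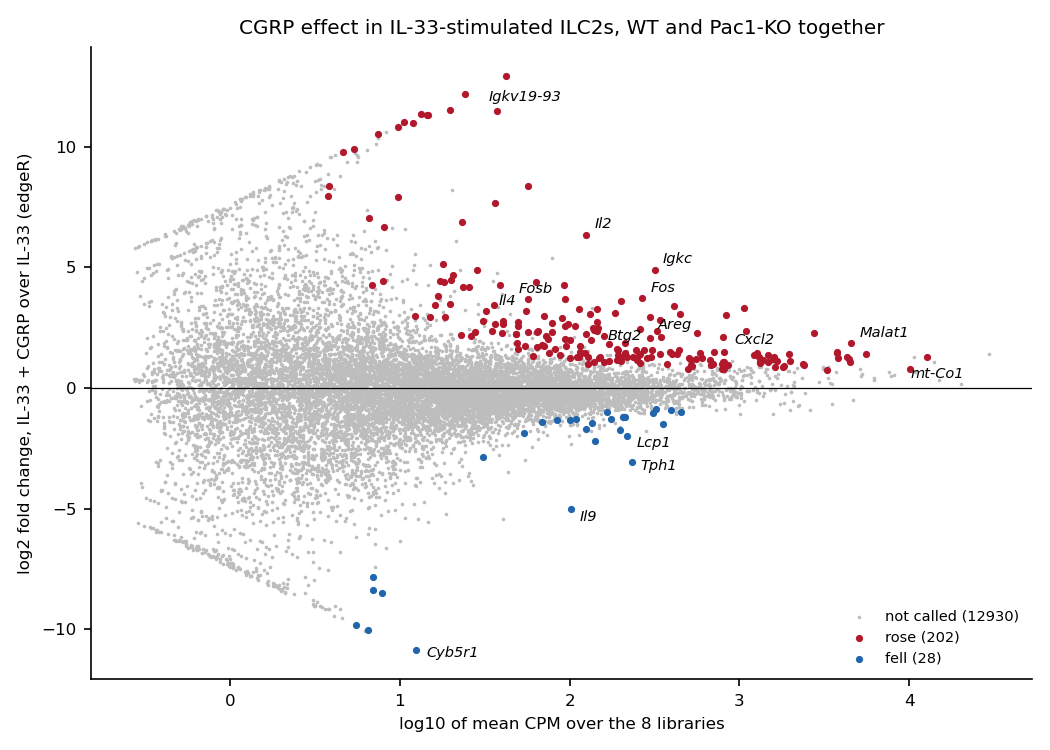
Fold change against level for the 13160 genes tested, with the log10 of the mean CPM on the x axis and edgeR's log2 fold change of CGRP over IL-33 on the y axis. Red points are the 202 genes that rose, blue points the 28 that fell, and gray points genes that did not pass the cutoff; the diagonal edges at low levels hold genes with no counts in one treatment.

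The promoters of the risers were read for the CRE because the receptor signals through cAMP. In RefSeq promoter windows (GRCm38.p6), the palindromic CRE, TGACGTCA, was present in the 250 bases before the start of 14 of the 121 risers with a window (11.6%), of 285 of the 8959 tested genes with one (3.18%), and of 478 of 27025 genes in all (1.77%). It was present in 0 of 24 fallers with a window. The shorter CRE core TGACG, on either strand and counting those inside palindromes, was found for 47.1% of the risers, 31.4% of tested genes, and 19.8% of all genes. It was also found for 10 of the 24 fallers (41.7%). The AP-1 motif TGANTCA was found for 4.13% of the risers and 5.48% of tested genes, and the EGR motif GCGNGGGCG for 15.7% and 10.3%. These are matches of letters in a fixed window and not measured binding. The palindromic genes were *Areg*, *Btg2*, *Dusp1*, *Arl5b*, *Ppp1r15a*, *Nfkbid*, *Snhg15*, *Gas5*, *Ccnl1*, *H2-Aa*, and the ribosomal protein genes *Rpl13*, *Rpl27a*, *Rps9*, and *Fau*. The 170 bases before the start are given below for 4 of them and for *Fos* and *Nr4a1*, which carried the core instead, to show where the motif lies in genes described further on. Capitals mark the palindrome, or TGACG and its reverse complement CGTCA where it stands alone, and each sequence runs 5′ to 3′ on the gene's strand.
Areg, chr5:91139429-91139598, plus strand: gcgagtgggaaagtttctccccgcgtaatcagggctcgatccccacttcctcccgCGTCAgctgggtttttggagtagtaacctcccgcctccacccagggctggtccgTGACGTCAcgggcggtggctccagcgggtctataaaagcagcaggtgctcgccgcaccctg
Btg2, chr1:134079156-134079325, minus strand: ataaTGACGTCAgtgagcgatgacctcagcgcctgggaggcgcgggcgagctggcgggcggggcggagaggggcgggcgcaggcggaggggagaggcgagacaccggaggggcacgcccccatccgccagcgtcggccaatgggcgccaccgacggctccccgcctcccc
Dusp1, chr17:26508473-26508642, minus strand: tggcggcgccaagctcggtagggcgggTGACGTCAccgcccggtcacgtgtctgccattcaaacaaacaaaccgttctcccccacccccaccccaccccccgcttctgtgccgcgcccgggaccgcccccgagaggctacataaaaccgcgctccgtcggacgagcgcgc
Ppp1r15a, chr7:45526269-45526438, minus strand: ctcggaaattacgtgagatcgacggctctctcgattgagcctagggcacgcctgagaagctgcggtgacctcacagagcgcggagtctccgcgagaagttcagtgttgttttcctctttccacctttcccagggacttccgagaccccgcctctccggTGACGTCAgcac
Fos, chr12:85473720-85473889, plus strand: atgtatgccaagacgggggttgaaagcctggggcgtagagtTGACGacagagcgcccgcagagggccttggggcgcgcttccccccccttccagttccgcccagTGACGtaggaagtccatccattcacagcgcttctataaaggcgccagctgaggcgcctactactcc
Nr4a1, chr15:101266676-101266845, plus strand: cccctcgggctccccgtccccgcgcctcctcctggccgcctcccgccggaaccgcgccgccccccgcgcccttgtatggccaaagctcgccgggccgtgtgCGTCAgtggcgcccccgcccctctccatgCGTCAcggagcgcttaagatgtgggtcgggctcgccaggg

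Counted from the start, the first base of the palindrome lay at -61 in *Areg*, -166 in *Btg2*, -143 in *Dusp1*, and -12 in *Ppp1r15a*. *Fos* had cores at -129 and -66, and *Nr4a1* at -69 and -40 within the stretch shown.

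Of 6 tested CGRP ligand and receptor genes, 0 passed the cutoff in edgeR or DESeq2. In edgeR 2 had an unadjusted *P* under 0.05, against 15.1% of all genes tested. *Calcrl*, the ligand-binding subunit, was at 26.0, 75.6, 44.0, and 45.4 CPM with IL-33 and 73.2, 66.8, 62.6, and 88.1 CPM with CGRP (log2 fold change 0.86 ± 0.38 (SE), adjusted *P* = 0.333). *Ramp1*, its partner, was at 180.3 to 189.8 CPM with IL-33 and 153 to 351 CPM with CGRP (log2 fold change 0.59 ± 0.26 (SE), adjusted *P* = 0.330). ILC2s also carried high levels of *Calca*, which encodes CGRP itself, at 5456, 5833, 4430, and 3093 CPM with IL-33 and 6739, 7384, 4888, and 4301 CPM with CGRP. The *Calca* levels overlapped between treatments (log2 fold change 0.56 ± 0.16 (SE), adjusted *P* = 0.151).

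On a list of cAMP and PKA pathway genes, 4 of 36 tested members rose, against 1.53% of all genes tested. The 4 were *Rgs2*, *Lmo4*, *Pde4b*, and *Gem*. The list holds response genes such as *Rgs2* and *Lmo4* beside pathway components. Its members were chosen with earlier results of these data known, so its share of risers is not independent support. The median log2 fold change of the list was 0.31. *Rgs2*, a regulator of G protein signaling that is itself a CREB target, had 1325, 1065, 1059, and 819.9 CPM with IL-33 and 3586, 3644, 5834, and 4567 CPM with CGRP. No CGRP library overlapped an IL-33 library, and *Rgs2* rose 4.91-fold (log2 fold change 2.30 ± 0.24 (SE), adjusted *P* = 0.00314). *Lmo4*, a LIM-domain transcriptional cofactor, had 362, 388, 337, and 618 CPM with IL-33 and 971, 1104, 983, and 881 CPM with CGRP. Its treatment groups were likewise apart (log2 fold change 1.49 ± 0.20 (SE), adjusted *P* = 0.00973). *Pde4b*, a phosphodiesterase that degrades cAMP, and *Gem*, a small GTPase, rose 2.73-fold and 3.28-fold, but those calls held in 1 and 2 of the 8 fits that left out 1 library (adjusted *P* 0.0449 to 0.123 and 0.0273 to 0.0998) and neither held with total-count scaling. *Crem*, which encodes cAMP-responsive modulators including an inducible repressor, was high in every library, at 2654 to 5094 CPM with IL-33 and 5177 to 6901 CPM with CGRP. Its libraries did not overlap, yet it did not pass (log2 fold change 0.79 ± 0.20 (SE), adjusted *P* = 0.0997). Of 9 genes that the study names as CGRP response genes, *Lmo4* was the 1 that passed, and the list was drawn up on these libraries among others, so it is not independent. With CGRP, the study reported higher RNA of *Calca*, *Gpr65*, *Plac8*, *Tnfrsf9*, and *Perp* in WT than in *Pac1*-KO cells. For *Calca*, *Crem*, *Pde4d*, *Lmo4*, and *Icos* it reported more accessible chromatin in WT cells with NMU plus CGRP. Neither comparison is the CGRP effect on RNA pooled over genotypes that was tested here. The levels of *Perp* (log2 fold change 1.07 ± 0.30 (SE), adjusted *P* = 0.142), *Gpr65* (log2 fold change 0.56 ± 0.17 (SE), adjusted *P* = 0.165), and *Tnfrsf9* (log2 fold change -0.61 ± 0.33 (SE), adjusted *P* = 0.438) overlapped between treatments.

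All 3 NR4A orphan nuclear receptors rose, against 1.53% of all genes tested. *Nr4a2* was at 33.3, 26.5, 12.8, and 26.1 CPM with IL-33 and 143, 139, 234, and 288 CPM with CGRP (log2 fold change 3.27 ± 0.42 (SE), adjusted *P* = 0.00771). *Nr4a3* was at 23.3, 33.4, 18.6, and 59.6 CPM and 204, 275, 227, and 213 CPM, respectively (log2 fold change 3.06 ± 0.36 (SE), adjusted *P* = 0.00600). For both genes every CGRP library exceeded every IL-33 library by a wide margin. *Nr4a1* was at 62.3, 80.4, 97.9, and 216 CPM with IL-33 and 245, 211, 265, and 351 CPM with CGRP, so the highest IL-33 library, *Pac1*-KO 2, overlapped the lowest CGRP library. It rose 3.03-fold (log2 fold change 1.6 ± 0.28 (SE), adjusted *P* = 0.0309), and the call was lost without IL-33 library WT 1 (adjusted *P* = 0.0534) and with total-count scaling.

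AP-1 genes gave 6 risers and 1 faller among 12 tested, against 1.53% and 0.213% of all genes tested, with a list median of 2.14. *Fos*, the founding member of the family, was at 45.4, 24.1, 49.7, and 62.0 CPM with IL-33 and 372, 456, 571, and 549 CPM with CGRP. All 4 CGRP libraries were several-fold above the highest IL-33 library, and *Fos* rose 13.2-fold (log2 fold change 3.73 ± 0.23 (SE), adjusted *P* = 1.97e-04). *Fosb* was at 10.4, 14.1, 13.8, and 23.6 CPM with IL-33 and 108, 125, 244, and 209 CPM with CGRP (log2 fold change 3.69 ± 0.29 (SE), adjusted *P* = 6.05e-04). *Junb*, a partner of FOS proteins, was at 26.2, 34.1, 33.9, and 93.5 CPM with IL-33 and 259, 237, 415, and 384 CPM with CGRP (log2 fold change 3.12 ± 0.31 (SE), adjusted *P* = 0.00234). *Atf3*, a stress-inducible factor, was at 25.7, 12.6, 53.7, and 35.4 CPM with IL-33 and 147, 173, 480.3, and 224 CPM with CGRP (log2 fold change 3.28 ± 0.34 (SE), adjusted *P* = 0.00251). In each of these the treatments were fully apart. *Jun* rose from a low base, from a range of 0.646 to 5.98 CPM with IL-33 to one of 39.4 to 57.0 CPM with CGRP (log2 fold change 4.17 ± 0.67 (SE), adjusted *P* = 0.0205), and *Fosl2* from a range of 187 to 318 CPM with IL-33 to one of 525 to 706 CPM with CGRP (log2 fold change 1.57 ± 0.17 (SE), adjusted *P* = 0.00325). The faller was *Batf*, a JUN partner that drives effector programs in lymphocytes, at 188, 205, 264, and 136 CPM with IL-33 and 29.5, 66.7, 62.1, and 45.8 CPM with CGRP. *Batf* fell 3.28-fold (log2 fold change -1.71 ± 0.33 (SE), adjusted *P* = 0.0438), and its call held in 4 of the 8 fits without 1 library (adjusted *P* 0.0132 to 0.112).

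Other early response genes moved the same way. Among 20 tested EGR, IER, KLF, and GADD45 genes and their like, 6 rose, against 1.53% of all genes tested, and 0 fell. All 20 log2 fold changes were above 0 (median 1.57), as were 46.7% of those of all genes tested. *Gadd45b*, a growth-arrest and stress gene, was at 221, 186, 232, and 186 CPM with IL-33 and 769.6, 1337, 2248, and 1507 CPM with CGRP (log2 fold change 3.03 ± 0.29 (SE), adjusted *P* = 0.00187). *Btg2*, an antiproliferative factor with the palindromic CRE shown above, was at 50.6, 39.6, 67.8, and 58.9 CPM with IL-33 and 157, 181, 345, and 259.7 CPM with CGRP (log2 fold change 2.34 ± 0.22 (SE), adjusted *P* = 0.00185). The CGRP libraries were 2 or more times the highest IL-33 library for both genes. *Ier2* (log2 fold change 2.63 ± 0.27 (SE), adjusted *P* = 0.00251) and *Zfp36* (log2 fold change 2.75 ± 0.33 (SE), adjusted *P* = 0.00627), which encodes the mRNA-destabilizing protein tristetraprolin, were also fully apart. *Klf6* rose from a range of 182 to 293 CPM with IL-33 to one of 361 to 913 CPM with CGRP (log2 fold change 1.42 ± 0.23 (SE), adjusted *P* = 0.0196), and *Klf4* from a range of 32.9 to 69.3 CPM with IL-33 to one of 93.2 to 201 CPM with CGRP (log2 fold change 1.73 ± 0.31 (SE), adjusted *P* = 0.0309), although *Klf4* lost its call without CGRP library *Pac1*-KO 1 (adjusted *P* = 0.0605) and with total-count scaling.

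Feedback inhibitors of ERK and MAPK signaling gave 3 risers among 11 tested genes, against 1.53% of all genes tested (list median 1.13). *Spry2*, a Sprouty inhibitor of receptor signaling to ERK, was at 99.7, 109, 137, and 154 CPM with IL-33 and 416, 422, 556, and 737 CPM with CGRP (log2 fold change 2.34 ± 0.19 (SE), adjusted *P* = 6.96e-04). *Dusp1*, a MAPK phosphatase of the same family as PAC1 and a carrier of the palindromic CRE, was at 38, 20.8, 36.8, and 39.6 CPM with IL-33 and 94.8, 96.8, 138, and 136 CPM with CGRP (log2 fold change 2.05 ± 0.26 (SE), adjusted *P* = 0.00764). Both were clear of the IL-33 range. *Spry1* was at 0.942, 3.63, 1.29, and 1.86 CPM with IL-33 and 13.1, 39.3, 43.2, and 43.6 CPM with CGRP, with CGRP library WT 1 the lowest of its group (log2 fold change 4.39 ± 0.75 (SE), adjusted *P* = 0.0274). Its call was lost without IL-33 library *Pac1*-KO 1 (adjusted *P* = 0.0591), and its log2 fold change was 5.06 without IL-33 library WT 2. *Dusp5* (log2 fold change 1.64 ± 0.36 (SE), adjusted *P* = 0.0630) and *Dusp6* (log2 fold change 0.40 ± 0.51 (SE), adjusted *P* = 0.807) overlapped between treatments, and the sign for *Dusp6* turned without CGRP library *Pac1*-KO 1 (-0.09). *Map3k8*, which encodes the MAP kinase kinase kinase TPL2, was at 108, 63.8, 90.6, and 114 CPM with IL-33 and 484, 363, 370.2, and 474 CPM with CGRP (log2 fold change 2.45 ± 0.23 (SE), adjusted *P* = 0.00160).

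**Figure D2:**
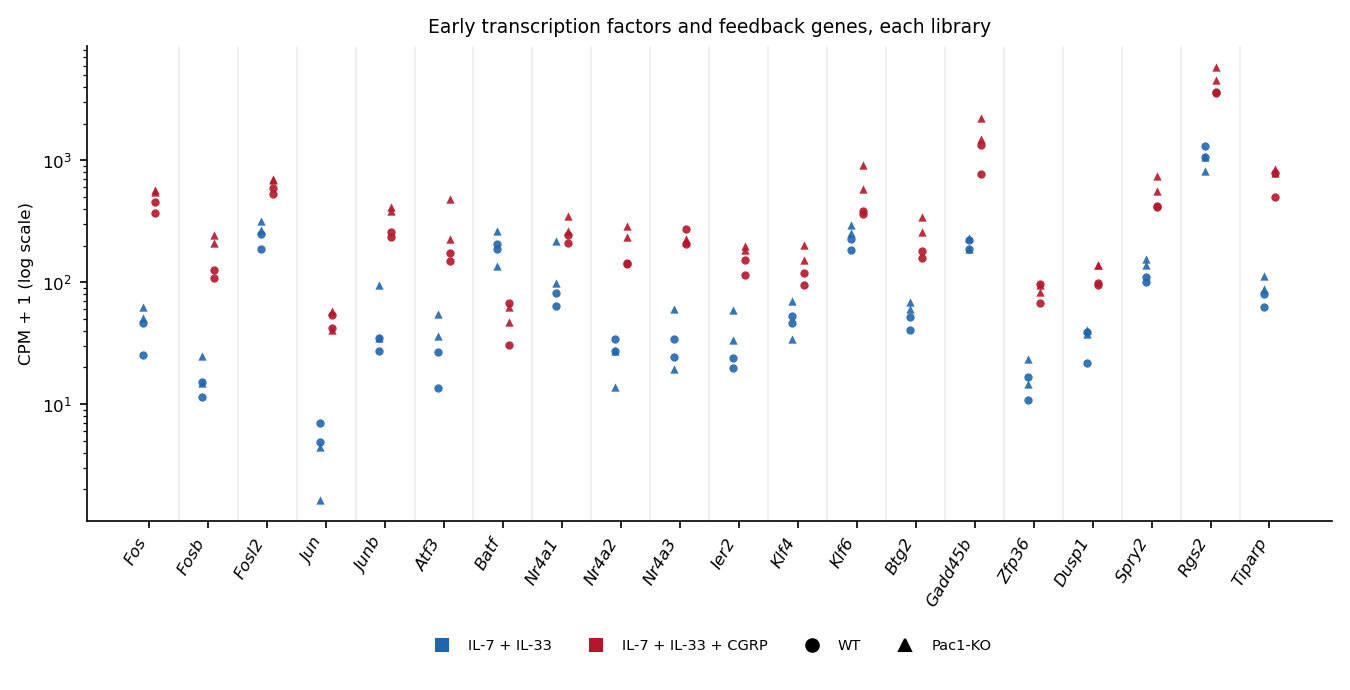
CPM plus 1 on a log axis for 20 transcription factor, early response, and feedback genes, with 1 point per library: blue for IL-33, red for CGRP, circles for WT, and triangles for *Pac1*-KO. The CGRP points lie above the IL-33 points except for *Batf*, which lies below, and *Nr4a1*, whose highest IL-33 point reaches the CGRP range.

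Among type 2 and growth factor cytokines, 4 of 9 tested genes rose and 1 fell, against 1.53% and 0.213% of all genes tested. *Il2*, the growth factor of lymphocytes, was at 6.36, 2.16, 3.17, and 2.90 CPM with IL-33 and 270.2, 209.6, 272, and 232 CPM with CGRP. The rise was 82.1-fold (log2 fold change 6.36 ± 0.40 (SE), adjusted *P* = 1.97e-04), from a few CPM in each IL-33 library. *Il4*, the cytokine of Th2 differentiation and IgE switching, was at 11.9, 5.79, 10.2, and 10.6 CPM with IL-33 and 132, 118, 83.8, and 83.8 CPM with CGRP (log2 fold change 3.69 ± 0.33 (SE), adjusted *P* = 0.00141). *Areg*, the tissue-repair factor amphiregulin, was at 109.7, 107, 150.2, and 165 CPM with IL-33 and 427, 466, 461, and 492 CPM with CGRP (log2 fold change 2.09 ± 0.16 (SE), adjusted *P* = 6.05e-04). Its 4 CGRP libraries, at 427 to 492 CPM, lay close together and well above the IL-33 range. *Il3*, a growth factor of mast cells and basophils, was without a read in the 4 IL-33 libraries (0 counts each) and was at 121, 108, 76.4, and 30.8 CPM with CGRP, a level at least 1347-fold above a floor of 3 counts over the 4 IL-33 libraries (adjusted *P* = 0.00234).

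*Il9*, an ILC2 cytokine that also sustains the cells, moved the other way. It was at 214, 283, 144, and 123 CPM with IL-33 and 34.6, 14, 0.783, and 0.240 CPM with CGRP. Every CGRP library was below every IL-33 library, and *Il9* fell 32.2-fold (log2 fold change -5.01 ± 0.96 (SE), adjusted *P* = 0.0408). The size of this fall depended on single libraries: the log2 fold change of *Il9* was -6.0, -5.93, and -5.73 without IL-33 library WT 1, IL-33 library WT 2, and CGRP library WT 1, -4.39 and -4.27 without CGRP libraries *Pac1*-KO 1 and *Pac1*-KO 2, and -4.01 with all 16 libraries in 1 fit. The loss was -3.18 on the log2 scale in WT and -7.63 in *Pac1*-KO libraries, an interaction of -4.45 that did not pass over all genes (unadjusted *P* = 8.08e-04, adjusted *P* = 0.840). *Il13*, the central effector cytokine of ILC2s, was at 19.7, 29.9, 36.6, and 49.0 CPM with IL-33 and 6.06, 13.6, 8.71, and 4.68 CPM with CGRP. These libraries did not overlap either, but the difference did not pass in edgeR (log2 fold change -1.75 ± 0.56 (SE), adjusted *P* = 0.192), whereas DESeq2 called *Il13* lower (adjusted *P* = 0.00708). *Il5*, the eosinophil growth factor, was among the highest genes at 6697, 7467, 8226, and 6587 CPM with IL-33 and 8615, 9749, 9212, and 8073 CPM with CGRP (log2 fold change 0.56 ± 0.14 (SE), adjusted *P* = 0.110). *Csf2*, encoding GM-CSF, was at 1141, 1653, 887, and 800.0 CPM with IL-33 and 2041, 1750, 2232, and 1935 CPM with CGRP (log2 fold change 1.13 ± 0.26 (SE), adjusted *P* = 0.0728). Neither passed in edgeR, *Il5* overlapped between treatments while *Csf2* did not, and DESeq2 called *Csf2* (adjusted *P* = 0.0240).

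Of 11 other cytokine genes tested, 0 passed in edgeR, and their median log2 fold change was -0.97. In edgeR 5 had an unadjusted *P* under 0.05, against 15.1% of all genes tested. DESeq2 called 3 of the list higher and 1 lower, against 786 and 455 of the 27719 genes with any count. That total holds low-count genes left out in edgeR, so its share is not that of the genes tested there. *Il6* was at 251, 343, 500.5, and 404 CPM with IL-33 and 84.9, 28.2, 419, and 434 CPM with CGRP (log2 fold change -0.97 ± 0.57 (SE), adjusted *P* = 0.496), with low values in the 2 WT CGRP libraries. *Il17f*, typical of ILC3s and of inflammatory ILC2s, was at 23.4, 9.81, 46.3, and 20.3 CPM with IL-33 and 379, 408, 143, and 50.8 CPM with CGRP, without overlap (log2 fold change 3.30 ± 0.73 (SE), adjusted *P* = 0.0680), and was called by DESeq2 (adjusted *P* = 0.000347) but not by edgeR. Among chemokines 3 of 8 rose, against 1.53% of all genes tested. *Cxcl2*, a neutrophil attractant, was at 282, 309, 452, and 353 CPM with IL-33 and 912, 1087, 1647, and 1400 CPM with CGRP (log2 fold change 2.10 ± 0.18 (SE), adjusted *P* = 0.00100). *Ccl1*, the ligand of CCR8, was at 903, 1201, 627, and 480.3 CPM with IL-33 and 1796, 1792, 1563, and 1410 CPM with CGRP (log2 fold change 1.35 ± 0.23 (SE), adjusted *P* = 0.0269). Both were apart by treatment. *Ccl4* had 0 counts in the IL-33 and WT CGRP libraries and 80.8 and 113 CPM in the *Pac1*-KO CGRP libraries, so its call (adjusted *P* = 0.0213) rests on 1 genotype, and DESeq2 did not call *Ccl4* (adjusted *P* = 0.190). The receptor *Ccr8* was at 669 to 1467 CPM with IL-33 and 1504 to 2263 CPM with CGRP and did not pass in edgeR (log2 fold change 1.10 ± 0.28 (SE), adjusted *P* = 0.104), with an adjusted *P* of 0.0498 for *Ccr8* in DESeq2.

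**Figure D3:**
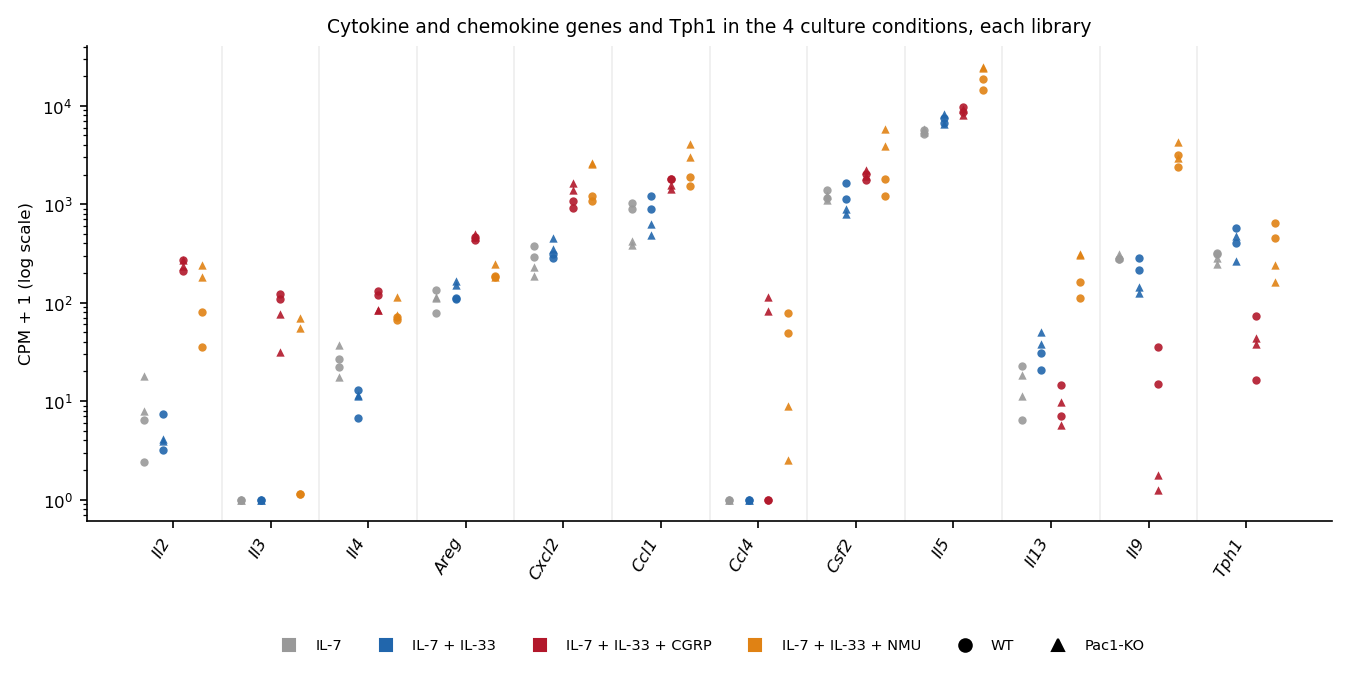
CPM plus 1 on a log axis for 11 cytokine and chemokine genes and *Tph1* in IL-7 (gray), IL-33 (blue), CGRP (red), and NMU (orange) cultures, with circles for WT and triangles for *Pac1*-KO libraries. *Il2*, *Il4*, and *Areg* are highest or near highest with CGRP, whereas *Il5*, *Il13*, and *Il9* peak with NMU, and *Il9* and *Tph1* are lowest with CGRP.

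Of 18 NF-κB subunits, inhibitors, and targets, 5 rose, against 1.53% of all genes tested, and 0 fell, with a list median of 0.05. *Rel*, encoding the c-Rel subunit, was at 71.7, 33.0, 84.1, and 90.7 CPM with IL-33 and 237, 171, 297, and 299 CPM with CGRP (log2 fold change 2.15 ± 0.26 (SE), adjusted *P* = 0.00628). *Nfkbiz*, encoding the nuclear inhibitor-like cofactor IκBζ, was at 153, 126, 101, and 232 CPM with IL-33 and 481, 483, 662, and 543 CPM with CGRP (log2 fold change 2.10 ± 0.25 (SE), adjusted *P* = 0.00556). Both were without overlap. *Nfkbia*, encoding IκBα, rose from a range of 791 to 1329 CPM with IL-33 to one of 1558 to 3047 CPM with CGRP (log2 fold change 1.27 ± 0.24 (SE), adjusted *P* = 0.0408), a call lost without CGRP library *Pac1*-KO 1 (adjusted *P* = 0.0525) and with total-count scaling. *Tnfaip3*, encoding the deubiquitinase A20, overlapped between treatments (log2 fold change 1.14 ± 0.20 (SE), adjusted *P* = 0.0285) and kept its call in 4 of the 8 fits without 1 library (adjusted *P* 0.00671 to 0.0661) but not with total-count scaling. *Nfkbid* (log2 fold change 2.33 ± 0.41 (SE), adjusted *P* = 0.0309) kept its call in 0 of them (adjusted *P* 0.0501 to 0.0932). *Nfkb1* was at 200.4 to 483 CPM with IL-33 and 250.4 to 346 CPM with CGRP (log2 fold change 0.32 ± 0.27 (SE), adjusted *P* = 0.667).

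Few cell surface genes passed in edgeR, where 1.53% of all genes tested rose. *Cd69*, the early activation antigen that holds lymphocytes in tissue, was at 277, 174, 326, and 126 CPM with IL-33 and 1374, 1611, 2631, and 2031 CPM with CGRP (log2 fold change 3.30 ± 0.35 (SE), adjusted *P* = 0.00319), with the treatments far apart. It was the 1 riser of 24 co-stimulatory, co-inhibitory, and TNF family genes. Of these 24, 9 had an unadjusted *P* under 0.05 in edgeR, against 15.1% of all genes tested. DESeq2 called 2 of this list higher and 2 lower. *Lpar6*, a lysophosphatidic acid receptor, was at 104, 102, 94.5, and 46.7 CPM with IL-33 and 197, 247, 262, and 303 CPM with CGRP (log2 fold change 1.81 ± 0.33 (SE), adjusted *P* = 0.0324), the 1 riser of 22 G protein-coupled receptors. Of these 22 receptors, 9 had an unadjusted *P* under 0.05 in edgeR, and DESeq2 called 3 of that list higher and 1 lower. Of 17 cytokine receptors, 0 passed in edgeR or DESeq2. In edgeR 3 had an unadjusted *P* under 0.05, against 15.1% of all genes tested. *Il2ra* was at 1108, 1145, 1339, and 1791 CPM with IL-33 and 918, 964, 611, and 628 CPM with CGRP (log2 fold change -0.53 ± 0.21 (SE), adjusted *P* = 0.277), and *Il1rl1*, the IL-33 receptor, at 592 to 1180 and 964 to 1219 CPM (log2 fold change 0.62 ± 0.24 (SE), adjusted *P* = 0.271). *Klrg1*, an inhibitory receptor of mature ILC2s, was at 1662, 1471, 1837, and 797 CPM with IL-33 and 617, 567, 625, and 479.6 CPM with CGRP. Its treatments did not overlap, but the difference did not pass (log2 fold change -1.08 ± 0.27 (SE), adjusted *P* = 0.0984), although *Klrg1* passed in 5 of 9 other settings, DESeq2 among them (adjusted *P* = 0.0409). *Socs2*, a cytokine feedback inhibitor, rose from a range of 101 to 157 CPM with IL-33 to one of 204 to 280.3 CPM with CGRP (log2 fold change 1.17 ± 0.18 (SE), adjusted *P* = 0.0165) as 1 of 8 SOCS genes, a call held in 5 of the 8 fits without 1 library (adjusted *P* up to 0.0618) and lost with total-count scaling.

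Stress genes rose in 3 of 18 cases, against 1.53% of all genes tested. *Ppp1r15a*, the GADD34 phosphatase subunit that reverses translational arrest and whose promoter is shown above, was at 22.6, 8.34, 32.1, and 40.6 CPM with IL-33 and 72.0, 118, 221, and 112 CPM with CGRP (log2 fold change 2.68 ± 0.38 (SE), adjusted *P* = 0.0128). *Hspa1b*, an inducible HSP70, was at 11.3, 8.53, 12.7, and 16.6 CPM with IL-33 and 78.3, 53.7, 63.7, and 79.7 CPM with CGRP (log2 fold change 2.79 ± 0.33 (SE), adjusted *P* = 0.00556). Both sets of CGRP libraries were above the IL-33 range. *Dnajb1* overlapped (log2 fold change 0.99 ± 0.20 (SE), adjusted *P* = 0.0449) and kept its call in 0 of the 8 fits without 1 library (adjusted *P* 0.0992 to 0.195) and not with total-count scaling. The constitutive chaperones did not pass: *Hsp90aa1* was at 1703 to 2055 CPM with IL-33 and 1463 to 1863 CPM with CGRP (log2 fold change 0.14 ± 0.14 (SE), adjusted *P* = 0.731), and *Hspa5*, the ER chaperone BiP, at 696 to 1098 and 658 to 886 CPM (adjusted *P* = 0.999). With total-count scaling the log2 fold change of *Hsp90aa1* was -0.12.

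Several of the strongest risers belonged to no list. *Tiparp*, a mono-ADP-ribosyltransferase, was at 61.6, 79.6, 86.5, and 111 CPM with IL-33 and 793, 503, 857, and 789.5 CPM with CGRP (log2 fold change 3.40 ± 0.22 (SE), adjusted *P* = 2.40e-04). *Mt1*, encoding the metal-binding protein metallothionein 1, was at 7.85, 2.94, 14.3, and 17.8 CPM with IL-33 and 96.9, 75.2, 274, and 249 CPM with CGRP (log2 fold change 4.29 ± 0.33 (SE), adjusted *P* = 6.05e-04). Each was several-fold above the highest IL-33 library in every CGRP library. *Nsun6*, an RNA cytosine methyltransferase, rose 21.1-fold, from a range of 5.59 to 8.34 CPM with IL-33 to one of 95.4 to 131 CPM with CGRP (log2 fold change 4.40 ± 0.28 (SE), adjusted *P* = 1.97e-04). The uncharacterized genes *2310001H17Rik* and *1810026B05Rik* rose 12.2-fold and 4.81-fold, and the latter was at 208 to 273 CPM with IL-33 and 881 to 932 CPM with CGRP. The use of strand in counting is not stated, so reads of genes that overlap on opposite strands cannot be told apart.

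The fallers had varied functions. *Lcp1*, encoding the actin-bundling protein L-plastin, was at 384, 207, 361, and 484 CPM with IL-33 and 47.4, 74.7, 97.8, and 78.1 CPM with CGRP (log2 fold change -1.99 ± 0.25 (SE), adjusted *P* = 0.00680). *Selplg*, encoding the selectin ligand PSGL-1, was at 269.7, 171, 489, and 343 CPM with IL-33 and 61.5, 63.8, 76.3, and 101 CPM with CGRP (log2 fold change -1.75 ± 0.24 (SE), adjusted *P* = 0.0105). *Tph1*, the rate-limiting enzyme of peripheral serotonin synthesis and a marker of activated ILC2s, was at 566, 399, 478, and 263 CPM with IL-33 and 72.9, 15.4, 42.4, and 36.8 CPM with CGRP. The 3 were chosen among genes without overlap between treatments, and *Tph1* fell 8.38-fold (log2 fold change -3.07 ± 0.47 (SE), adjusted *P* = 0.0179). *Atp6ap2*, an accessory subunit of the vacuolar ATPase, was at 583, 487, 673, and 449 CPM with IL-33 and 174, 149.7, 208, and 120.1 CPM with CGRP (log2 fold change -1.49 ± 0.23 (SE), adjusted *P* = 0.0179). *Pcyt1a*, the rate-limiting enzyme of phosphatidylcholine synthesis, fell 4.53-fold, from a range of 175 to 349 CPM with IL-33 to one of 25.3 to 76.7 CPM with CGRP (log2 fold change -2.18 ± 0.36 (SE), adjusted *P* = 0.0237). *Cyb5r1* had 15.5, 11.9, 29.0, and 43.7 CPM with IL-33 and 0 counts in the 4 CGRP libraries, at least 339-fold lower against a floor of 3 counts over them (adjusted *P* = 0.0171). These 6 and *Il9* kept their calls in each of the 8 fits that left out 1 library. *Mrto4* kept its call in 6 of them, *Txnrd1*, encoding thioredoxin reductase 1, in 5, *Cct6a* in 4, *Spag7* in 3, *Polr2e* in 2, *Set* in 1, and *Tapbp* and *Ccng1* in 0, with adjusted *P* values up to 0.152.

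Lists for other functions held 0 genes that passed in edgeR. Of all genes tested, 15.1% had an unadjusted *P* under 0.05 in edgeR. DESeq2, fitted to the 27719 genes with any count, called 1241, 786 higher and 455 lower. That total holds low-count genes left out in edgeR, so its share is not that of the genes tested there. The DESeq2 counts per list may include members that edgeR did not test. Of 28 cell cycle genes (median log2 fold change -0.86), 7 had an unadjusted *P* under 0.05, and DESeq2 called 1 higher and 6 lower. Of 19 glycolysis and hypoxia genes (median -0.24), 3 had an unadjusted *P* under 0.05, and DESeq2 called 2 lower. Of 11 BCL2 family genes (median 0.13), 3 did so, and DESeq2 called 1 higher and 1 lower. Of 11 interferon-stimulated genes (median 0.41), 2 did so, and DESeq2 called 1 lower. *Ldha* was at 1573 to 2884 CPM with IL-33 and 1329 to 1865 CPM with CGRP (log2 fold change -0.24 ± 0.23 (SE), adjusted *P* = 0.720), *Pcna* at 185 to 309.9 and 187 to 297 CPM (log2 fold change 0.12 ± 0.21 (SE), adjusted *P* = 0.883), and *Bcl2* at 24.9 to 35 and 38 to 91.1 CPM (log2 fold change 1.25 ± 0.34 (SE), adjusted *P* = 0.134). The sign for *Pcna* turned with total-count scaling (-0.14), and DESeq2 called *Bcl2* (adjusted *P* = 0.0104).

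**Figure D4:**
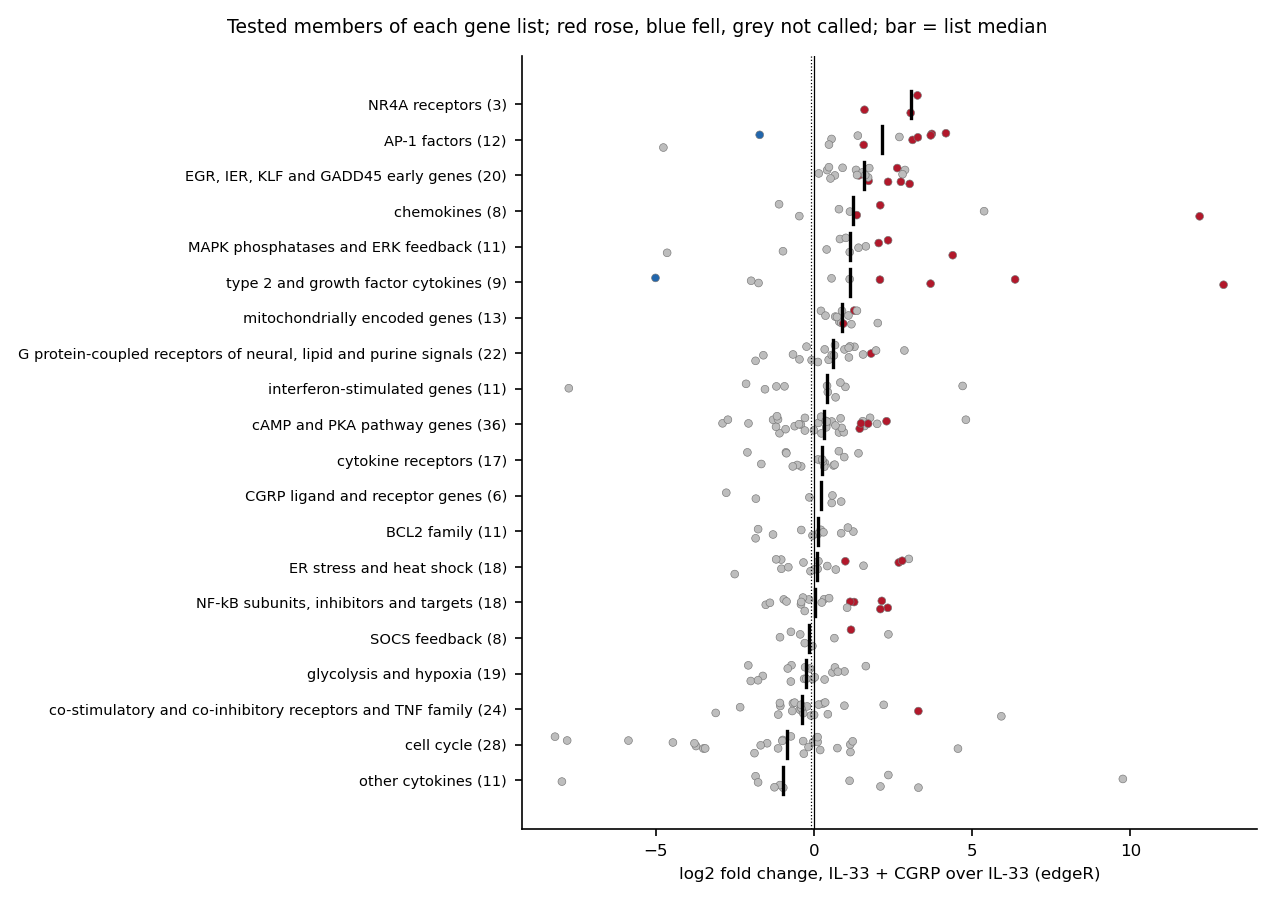
Log2 fold change of CGRP over IL-33 (x axis) for each tested member of 20 gene lists, ordered by list median (black bar) with the number of tested genes in parentheses. Red points rose, blue points fell, gray points did not pass, and the dotted line marks the median of all 13160 genes (-0.09); the NR4A, AP-1, and early gene lists stand at the top with medians of 3.06, 2.14, and 1.57.

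Genes of mitochondria, ribosomes, and small nuclear RNAs were higher in the CGRP libraries as classes. Of all genes tested, 1.53% rose, 46.7% had log2 fold changes above 0, and 4.83% had CGRP libraries wholly above the IL-33 libraries. All 13 mitochondrially encoded genes had log2 fold changes above 0 (median 0.89) and 2 passed, *mt-Co1* at 8750, 11246, 7948, and 6204 CPM with IL-33 and 16886, 17968, 15412, and 17745 CPM with CGRP (log2 fold change 1.27 ± 0.20 (SE), adjusted *P* = 0.0179), and *mt-Nd5* (log2 fold change 0.93 ± 0.17 (SE), adjusted *P* = 0.0326), which kept its call in 4 of the 8 fits without 1 library (adjusted *P* up to 0.0786) but not with total-count scaling. The share of counts on these genes was 8.30% to 12.6% with CGRP, 8.60% to 10.2% with IL-7, and 3.32% to 5.54% with NMU, so the CGRP range overlapped that of the unstimulated IL-7 cultures. Of 77 ribosomal protein genes tested, 30 rose and 0 fell (median 0.87), and 44 had CGRP libraries wholly above the IL-33 libraries. *Rps19-ps6*, a ribosomal protein pseudogene, was also among the risers, and reads are uncertain between such copies. Small nuclear RNA genes summed to 340 to 624 CPM with CGRP and 45.9 to 69.6 CPM with IL-33, and small nucleolar RNA genes to 224 to 416 against 41.7 to 79.8 CPM. *Malat1*, a nuclear long noncoding RNA, was at 2002, 2364, 1365, and 3332 CPM with IL-33 and 5662, 6382, 6913, and 8175 CPM with CGRP (log2 fold change 1.85 ± 0.26 (SE), adjusted *P* = 0.0119). In IL-7 and NMU libraries the small nuclear RNA genes summed to 56.7 to 76.7 and 31.5 to 55.0 CPM. The part of RNA quality or library preparation in these differences was not tested.

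Immunoglobulin transcripts were higher in all 4 CGRP libraries than in any other library. *Igkc*, the kappa light chain constant segment, was at 11.1, 12.9, 43.8, and 38.6 CPM with IL-33 and 337, 395, 917, and 782 CPM with CGRP (log2 fold change 4.90 ± 0.21 (SE), adjusted *P* = 3.45e-05). All immunoglobulin segments together summed to 785 to 2143 CPM with CGRP, 79.9 to 195 with IL-33, 59.3 to 169 with IL-7, and 20.4 to 107 with NMU. Of 16 variable segments that reached 20 CPM in any of the 8 libraries, 0 did so in an IL-33 library, and 1, *Igkv19-93*, did so in all 4 CGRP libraries (57.3, 71.2, 81.3, and 88.1 CPM). *Igkv8-21* was at 77.3 and 81.3 CPM in the 2 WT CGRP libraries and 0.294 and 0 CPM in the *Pac1*-KO ones. In contrast, 6 segments reached 20 CPM in both *Pac1*-KO CGRP libraries and neither WT one, among them *Igkv6-15* (65.3 and 50.3 CPM) and *Igkv14-100* (45.5 and 49.9 CPM), each with 0 counts in WT. Libraries of 1 genotype and treatment thus shared variable segments that the other genotype lacked, while 8 segments reached 20 CPM in 1 of 2 libraries of a genotype. Whether the 2 libraries of a group came from 1 cell pool was not tested. The *P* values given here treat them as independent. Of the 5 B cell markers, *Cd79b* rose, from a range of 5.59 to 20.4 CPM with IL-33 to one of 31.6 to 157 CPM with CGRP (log2 fold change 3.19 ± 0.46 (SE), adjusted *P* = 0.0137), *Ms4a1* reached 81.5 CPM in a CGRP library and at most 0.646 CPM with IL-33, and *Cd79a* was at most 20.8 CPM with CGRP. The MHC class II genes *H2-Aa* (log2 fold change 2.75 ± 0.46 (SE), adjusted *P* = 0.0255) and *H2-Ab1* (log2 fold change 2.36 ± 0.36 (SE), adjusted *P* = 0.0168) rose as well. These 2 genes, the variable segments other than *Igkv19-93*, *Malat1*, and *Rps19-ps6* were picked out after their values were seen. So were the immunoglobulin, ribosomal protein, small nuclear RNA, and small nucleolar RNA classes. The T cell markers summed to 83.3 to 148 CPM with CGRP and 45.2 to 175 with IL-33, and the myeloid markers to 1.47 to 11.1 and 1.26 to 17.7 CPM. The 9 epithelial, endothelial, and stromal markers summed to less with CGRP (40.3 to 58.9 CPM) than with IL-33 (72.7 to 140.2 CPM), and to 28.3 to 80.8 CPM with IL-7 and 72.6 to 375 CPM with NMU. Of the 4 tested, *Epcam*, an epithelial adhesion molecule, was the 1 whose treatments did not overlap, at 5.4 to 22.6 CPM with CGRP and 38.6 to 91.9 CPM with IL-33, and it did not pass in edgeR (log2 fold change -2.38 ± 0.51 (SE), adjusted *P* = 0.0577), while DESeq2 called 1 gene of the list lower. Mast cell and basophil markers summed to 76.4 to 177 CPM with CGRP and 48.5 to 78.1 CPM with IL-33. The part of RNA from B cells or these other cells in the other results was not tested.

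**Figure D5:**
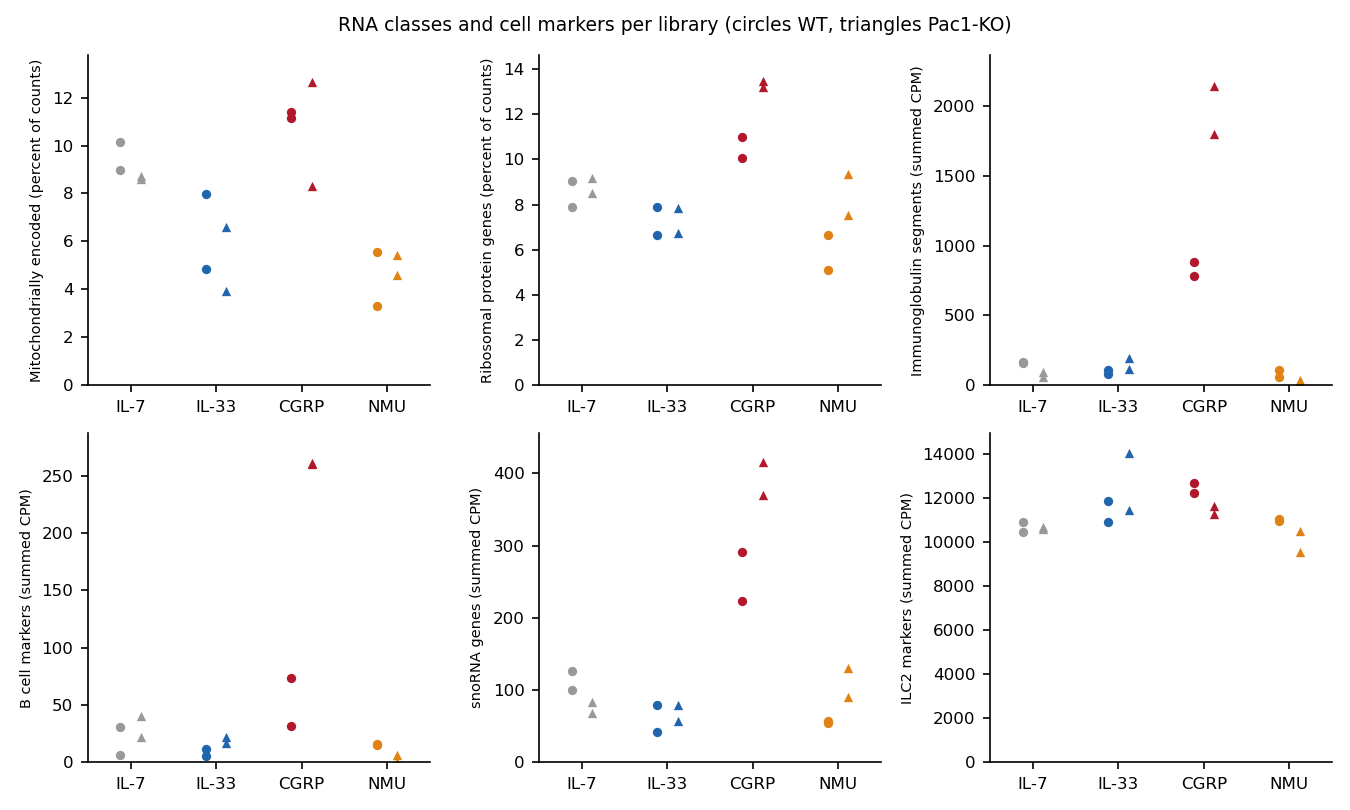
Share of counts on mitochondrially encoded and ribosomal protein genes (percent) and summed CPM of immunoglobulin segments, B cell markers, small nucleolar RNA genes, and ILC2 markers, with 1 point per library in each of the 4 culture conditions (circles WT, triangles *Pac1*-KO). The first 5 measures are above the IL-33 range in all 4 CGRP libraries, while the ILC2 markers (11250 to 12670 CPM) lie within it (10900 to 14020 CPM).

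The effect was next compared between genotypes. No gene of 13160 passed the interaction of CGRP and genotype in edgeR's quasi-likelihood test after Benjamini-Hochberg adjustment (smallest adjusted *P* = 0.748), with 719 at an unadjusted *P* under 0.05, while DESeq2 called 241 and the fit without a filter on low counts 44. Without CGRP library WT 2 or *Pac1*-KO 1 the count was 56 or 37. All 224 genes that passed in the pooled comparison and could be fitted in each genotype had the same direction in both, 196 upward and 28 downward, which the pooled choice favors by construction. *Fos* had log2 fold changes of 3.75 in WT and 3.68 in *Pac1*-KO, *Areg* of 2.21 and 1.95, *Il2* of 6.0 and 6.71, *Lcp1* of -2.10 and -1.91, and *Tph1* of -3.25 and -2.90. Larger gaps were seen for *Rgs2* (1.77 and 2.80), *Nr4a2* (2.41 and 4.12), and *Pcyt1a* (-1.45 and -2.93), with unadjusted interaction *P* values of 0.0130, 0.0114, and 0.0169 and adjusted values of 0.853, 0.853, and 0.853. With 2 libraries per group, a missed threshold does not show that the genotypes respond alike.

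The CGRP libraries were also compared directly with the NMU libraries. NMU was not tested against IL-33, so a difference here cannot be assigned to CGRP or to NMU. Of 12834 genes tested in edgeR, 495 (3.86%) passed, 310 higher with CGRP (2.42%) and 185 lower (1.44%). NMU signals through a Gq-coupled receptor and is known as an activator of ILC2s. *Fos* was at 24.8, 36.5, 20.8, and 43.5 CPM with NMU and *Lmo4* at 137, 168, 120.4, and 143 CPM, both below their CGRP levels (log2 difference CGRP minus NMU 4.08 ± 0.25 (SE), adjusted *P* = 4.27e-04 for *Fos* and 2.92 ± 0.15 (SE), adjusted *P* = 2.12e-04 for *Lmo4*). The early genes *Junb* (3.65 ± 0.29 (SE), adjusted *P* = 9.42e-04), *Gadd45b* (2.88 ± 0.27 (SE), adjusted *P* = 0.00178), *Rgs2* (2.31 ± 0.17 (SE), adjusted *P* = 7.06e-04), *Nr4a2* (3.18 ± 0.33 (SE), adjusted *P* = 0.00204), and *Cd69* (2.32 ± 0.19 (SE), adjusted *P* = 0.00104) were likewise higher with CGRP. *Areg* was higher with CGRP as well (1.35 ± 0.17 (SE), adjusted *P* = 0.00471), at 184, 180.3, 181, and 245 CPM with NMU. The effector cytokines were lower with CGRP: *Il9* was at 3156, 2392, 4307, and 2971 CPM with NMU (-8.99 ± 1.35 (SE), adjusted *P* = 0.0102), *Il13* at 111, 161, 312, and 305 CPM (-4.52 ± 0.51 (SE), adjusted *P* = 0.00301), and *Il5* at 14391, 18611, 24699, and 24450 CPM (-1.05 ± 0.20 (SE), adjusted *P* = 0.0254). *Tph1* was at 454, 637, 160.0, and 241 CPM with NMU (-2.84 ± 0.48 (SE), adjusted *P* = 0.0164). For *Il2* (1.26 ± 0.48 (SE), adjusted *P* = 0.199), *Il4* (0.47 ± 0.32 (SE), adjusted *P* = 0.482), and *Cxcl2* (-0.37 ± 0.20 (SE), adjusted *P* = 0.365) the neuropeptides did not differ detectably, and *Il2* was at 78.5, 34.5, 240.2, and 182 CPM with NMU. Levels with NMU could also lie away from those with IL-33, where *Lmo4* was at 337 to 618 CPM and *Il5* at 6587 to 8226 CPM. The CGRP libraries are the same ones as in the main comparison, so the results of both are not independent.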

How the data were processed

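RNA of about 500 sorted ILC2s per library was amplified as full-length cDNA and sequenced in pairs. The authors aligned reads to mm10 with HISAT2 and deposited 1 table of raw counts per gene for the 16 libraries. The counting tool, annotation, and use of strand are not given in the sources used here, and no molecular identifiers are described, so counts include amplification duplicates. The table held 51912 genes, of which 51633 had an annotation entry.

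Counts were analyzed with edgeR 4.0.16 (R 4.3.3) by the quasi-likelihood *F* test with TMM scaling, the filterByExpr filter by group, and genotype plus treatment as terms, on the 8 IL-33 and CGRP libraries. Genotype interaction and CGRP against NMU were fitted likewise on 8 libraries each. A gene passed with an adjusted *P* under 0.05 (Benjamini-Hochberg) and a change of more than 1.5-fold. The analysis was tested on simulated data. Totals and shares were compared by two-sided exact permutation (scipy 1.17.1). The 8 totals of 8333920 to 15470650 counts make 3 counts equal to 0.194 to 0.360 CPM, and such floors cover counting error only. A gene "did not overlap" where all 4 CGRP libraries were above or below all 4 IL-33 libraries in CPM.

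Named genes were the 15 risers and 15 fallers with the smallest *P* among genes that passed, did not overlap, and averaged at least 20 CPM in the higher treatment, together with list members that passed, up to 3 others of the highest mean CPM per list, *Calca*, *Calcrl*, *Ramp1*, *Dusp2*, and genes the study names as CGRP responsive. These 129 genes are given in part. Cell type markers and the risers with a palindromic CRE are given beside them, and other genes outside the rule are marked. Members and lists were chosen with earlier results of these data known. Alternatives were DESeq2 1.42.0, other scaling and filters, all 16 libraries in 1 fit, replicate blocks, each genotype alone, and each library left out. Scaling by total counts and the fit without mitochondrial, ribosomal protein, and immunoglobulin genes were added after the data were seen. Promoter windows came from RefSeq (GRCm38.p6) and were matched by symbol.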

Additional observations from a re-analysis of the deposited data

Results flagged for a closer look

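The 4 libraries of each treatment were examined for the named genes that passed, total counts, and the mitochondrial and ribosomal protein shares. Among these 138 groups of 4 libraries, 7 held a library far from the other 3 by Dixon's test at the 95% level. By chance alone, about 1 group in 20 is flagged. With IL-33, library *Pac1*-KO 2 was the highest for *Junb* (93.5 CPM, others 26.2 to 34.1) and the lowest for *Lpar6* (46.7 CPM, others 94.5 to 104.0). Library WT 2 with IL-33 was the highest for *1810026B05Rik* (273 CPM, others 208 to 214) and the lowest for *Dusp1* (20.8 CPM, others 36.8 to 39.6). Library *Pac1*-KO 1 was the only IL-33 library with a read on *Igkv19-93* (0.0646 CPM, others 0). With CGRP, library WT 1 was the lowest for *Spry1* (13.1 CPM, others 39.3 to 43.6) and for *Tnfaip3* (516 CPM, others 693 to 723).

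For 2 named genes, *Socs5* and *Irf1*, both CGRP libraries of 1 genotype lay above both of its IL-33 libraries, while those of the other genotype lay below theirs. The interaction was -5.33 on the log2 scale for *Socs5*, a cytokine feedback inhibitor (adjusted *P* = 0.748 in edgeR), and -2.50 for *Irf1*, an interferon-response factor (adjusted *P* = 0.853), so neither difference passed the test.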

How the results depend on the processing

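The count of changed genes depended strongly on the model. Against 230 genes (202 up, 28 down), DESeq2 called 1241 (786 and 455, 225 of them shared), no filter on low counts 639 (413 and 226), at least 10 counts in every library 465 (352 and 113), all 16 libraries in 1 fit 368 (123 down), and the fit without mitochondrial, ribosomal protein, and immunoglobulin genes 143 (126 and 17). Total-count scaling gave 121 up and 63 down, and RLE size factors 218 in all. Leaving out 1 library gave 133 to 243 in all, 124 to 212 up, and 9 to 55 down. The interaction count of 0 became 241 with DESeq2, 44 without a filter, and 0 to 56 without 1 library. The 495 genes that differed between CGRP and NMU became 1932 with DESeq2, 1102 without a filter, 859 with at least 10 counts, 744 with all 16 libraries, and 252 to 429 without 1 library, with 322 without CGRP library *Pac1*-KO 2, 312 without NMU library WT 1, and 252 without NMU library *Pac1*-KO 2. The difference in library totals ranged from -2633800 to -698668 counts without 1 library. Of 128 named genes, 18 changed sign in at least 1 alternative, 12 of them in one that kept both genotypes. None of the 18 had passed, and none passed after the change. Total-count scaling turned *Akap13*, *Pcna*, and *Hsp90aa1*. Within WT or *Pac1*-KO libraries alone, 65 and 66 named calls were lost, with 2 libraries against 2. The cause of these shifts was not tested.

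Deviations of same-numbered libraries correlated at -0.00878 to 0.0413. The labels do not say whether same-numbered libraries are paired, and with 2 libraries per group such correlations cannot exclude it. With a replicate block within genotype, 80 genes passed (76 up and 4 down), the interaction count stayed 0, 208 genes differed from NMU, and 26 named calls were lost, *Il9* among them (adjusted *P* = 0.0894). With the replicate block by number, 175 passed (159 up and 16 down), 378 differed from NMU, and 10 named calls were lost (*Il9*, adjusted *P* = 0.0506). Low counts limited genes under a few CPM, where a floor of 3 counts is 0.194 to 0.360 CPM.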
